A study of Mus musculus with 8 samples.

Results

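The 79 genes described here carry the names of the heat shock and DnaJ chaperones of the mouse, their heat shock factors and their BAG co-chaperones. They were taken by a rule on their symbols, which uses no measured value, from 52338 genes listed for C2C12 cells, an immortalized mouse myoblast line of wild type genotype. The names gave 11 HSP70 genes, 3 HSP110 genes, 3 HSP90 genes, 2 mitochondrial chaperonin genes, 9 small HSP genes, 4, 13 and 26 DnaJ genes of classes A, B and C, 6 BAG genes and 2 heat shock factor genes. Hspb11 fell under the name rule, although its product is an intraflagellar transport protein and no small HSP. In 1 of the 2 deposited tables it is named Ift25, so 78 genes were found by name there.

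RNA was sequenced in 8 libraries. One table, called the Re table here, held 3 libraries of C2C12 cells given ginsenoside Re, a steroidal saponin of ginseng, and 3 libraries given DMSO. The other table, called the pair here, held 1 library given ginseng berries concentrate (GBC) and 1 given DMSO. The sources used here state neither doses nor exposure times, nor whether replicates came from separate cultures, so the p-values measure only the spread between these libraries, which may be technical. By their labels all groups shared the cell line and genotype, a single line; it is not stated whether treated cells also received DMSO. Values are TPM, each transcript's share of the library's RNA corrected for its length, deposited as log2(TPM + 1). Because TPM keep no read counts, the depth is unknown. In bulk RNA, fewer cells expressing a gene and less RNA per cell cannot be told apart.

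Molecular chaperones bind unfolded protein and help it fold. HSP70 proteins hold short exposed stretches in a cycle driven by ATP; DnaJ proteins (HSP40) bring them clients and start ATP hydrolysis, while HSP110 and BAG proteins release the nucleotide. HSP90 takes over partly folded clients such as kinases and hormone receptors, HSP60 with HSP10 encloses proteins in the mitochondrial matrix, and small HSPs hold unfolding proteins without ATP. Under proteotoxic stress, HSF1 binds heat shock elements, arrays of inverted nGAAn units, and induces many of these genes. In muscle, Hspb1, Cryab, Hspb8 and Bag3 serve the upkeep of the contractile and cytoskeletal filaments.

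The pair's libraries went against their cell type label on the myoblast markers. Myod1, Myf5 and Cdh15, which define myoblasts, were listed at 0 in both libraries of the pair, while the 6 libraries of the Re table held 9.95 to 13.6, 30.2 to 34.2 and 12.8 to 17.5 TPM. The summed level of 8 myoblast markers was 8.16 TPM in the DMSO and 9.35 TPM in the GBC library of the pair, against 235 to 262 TPM in the Re table, and 5 of the 8 were under 0.1 TPM in each library of the pair. A list of 6 fibroblast or mesenchymal progenitor markers summed to 92.1 and 137 TPM in the pair and to 28.9 to 37.8 TPM in the Re table, but its genes did not all go one way. Thy1 was at 23.8 and 22.1 against at most 0.08 TPM and Ly6a at 51.5 and 58.5 against at most 16 TPM, Col1a1 was at 10.9 with DMSO and 46.6 with GBC against 12.9 to 20.03 TPM, and Lum and Dpt were at most 0.16 TPM in every library. Lists for differentiated muscle summed to 0.2 and 0.23 TPM in the pair and 24.6 to 35.3 TPM in the Re table, mostly Acta1, and lists for adipocytes, epithelium, endothelium and leukocytes reached at most 1.56 TPM in any library. The listed TPM summed to 403442 and 479938 in the pair and to 642180 to 743269 in the Re table. The tables were therefore tested apart, and levels set across them are descriptions; the part of these marker differences in any result was not tested.

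The heat shock element was looked for in the 250 bases before each start, since it is the sequence through which HSF1 induces many of these genes. RefSeq windows (GRCm38.p6) matched 63 of the 79 genes by symbol. The genes without a window, which were not searched, included Cryab, Hsf1, Hsp90aa1, Hsp90ab1, Hspa8 and Hspa9. The 2-unit forms, GAA and TTC in either order with NN (any 2 bases) between them, are each their own reverse complement and stood in 14 of the 63 genes (22.2%) and in 3932 of all 27025 genes with a window (14.5%). The 3-unit forms, GAANN then TTCNN then GAA and its reverse complement TTCNN then GAANN then TTC, contain the 2-unit forms and stood in 3 of the 63 (4.76%) and in 139 of all genes (0.514%). The genes with a 3-unit form were Dnajb6, Hspd1 and Hspe1; the other 11 were Dnaja1, Dnaja4, Dnajb4, Dnajc10, Dnajc27, Hspa1a, Hspa1b, Hspb1, Hspb3, Hspb6 and Hsph1. The 7 stretches below are shown because their genes carry the results that follow: the classical stress gene, the small HSP listed at or near 0 in 1 table only, 2 of the 6 genes that were at least 2-fold higher with GBC, the most abundant class B DnaJ gene of the Re table, and the chaperonin partners. Of those 6 genes, Dnajc7 and Hsp90b1 had windows without a match, and Hsp90ab1 and Cryab had no window. Other genes described below also had windows without a match, among them Dnajb1, Bag3 and Hspb8. Capitals mark the matched letters. A match is a description and not a binding site.
Hspa1b, chr17:34959310-34959369, minus strand: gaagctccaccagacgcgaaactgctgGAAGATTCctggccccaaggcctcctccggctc
Hspb1, chr5:135887785-135887844, plus strand: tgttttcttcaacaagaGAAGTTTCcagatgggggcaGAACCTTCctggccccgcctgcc
Hsph1, chr5:149636337-149636396, minus strand: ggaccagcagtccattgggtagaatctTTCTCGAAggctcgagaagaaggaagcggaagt
Dnaja1, chr4:40722317-40722376, plus strand: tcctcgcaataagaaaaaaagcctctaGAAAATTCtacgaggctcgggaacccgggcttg
Dnajb6, chr5:29735828-29735887, plus strand: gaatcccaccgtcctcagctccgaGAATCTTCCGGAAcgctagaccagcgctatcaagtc
Hspd1, chr1:55088053-55088082, minus strand: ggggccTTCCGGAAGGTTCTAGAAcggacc
Hspe1, chr1:55088053-55088082, plus strand: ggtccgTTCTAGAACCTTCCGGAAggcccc

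Hspa1a, at chr17:34972228-34972287 on the minus strand, carries the same 60 letters as Hspa1b, and the 250 bases upstream of these neighbours are identical at 247 positions (98.8%). In both, the match lies from 104 to 97 bases before the start. Hspb1 holds a pair of 2-unit matches, between 117 and 90 bases before its start. Hspd1 and Hspe1, the genes of mitochondrial HSP60 and of its lid HSP10, lie head to head on chromosome 1, and the stretch between them is 1 element read from opposite strands, from 144 to 127 bases before the start of Hspd1 and from 89 to 72 before that of Hspe1. The counts above are of genes, so this 1 element counts for both, and the near-identical Hspa1a and Hspa1b also count separately.

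In the 6 libraries of the Re table the chaperone genes ranged from silent to among the most abundant mRNAs. By mean TPM, 12 genes were under 1, 13 from 1 to 10, 39 from 10 to 100 and 15 at 100 or more. In the pair, of 78 genes, 17 were under 1, 27 from 1 to 10, 28 from 10 to 100 and 6 at 100 or more. The genes under 1 TPM in the Re table were Dnajb3, Dnajb7, Dnajb8, Dnajb13, Dnajc6, Dnajc22, Dnajc28, Hspa1a, Hspa1l, Hspb3, Hspb7 and Hspb9.

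The constitutive cytosolic chaperones led. Hspa8, the constitutive HSC70, stood at 2031, 2006 and 2186 TPM in the DMSO libraries and 2004, 2154 and 2322 TPM in the Re libraries, and at 694 and 743 TPM for DMSO and GBC in the pair. Hsp90ab1, the constitutive cytosolic HSP90, stood at 2082, 1960 and 2075 TPM with DMSO, 2062, 2201 and 2393 TPM with Re, and 190 and 546 TPM for DMSO and GBC in the pair. These genes were level with each other in the Re table, each between rank 23 and rank 28 of all genes in every library. In the pair Hspa8 ranked 76 and 78, and Hsp90ab1 ranked 232 with DMSO and 113 with GBC. The inducible Hsp90aa1 stood at 584, 543 and 567 TPM with DMSO and 677, 657 and 627 TPM with Re, without overlap, and at 218 and 277 TPM in the pair. In the DMSO library of the pair, Hsp90aa1 was thus the higher of the 2 cytosolic HSP90 genes, the other way round from each of the other 7 libraries.

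The stress-inducible HSP70 genes were low. Hspa1b stood at 15.1, 12.1 and 12.5 TPM with DMSO, 14.5, 15.7 and 15.2 TPM with Re, and 5.22 and 6.24 TPM in the pair. Hspa1a was listed at 0.06, 0 and 0.15 TPM with DMSO, 0, 0.50 and 0.39 TPM with Re, and 1.0 and 1.07 TPM in the pair. The split between these near-identical genes is uncertain: 66.3% of the 50-base windows of the Hspa1a transcript also occur in other genes' transcripts, and 62.3% of those of Hspa1b. Dnajb1, the main inducible HSP40, stood at 24.9, 19.2 and 24.9 TPM with DMSO, 26.3, 25.2 and 27.9 TPM with Re, and 9.15 and 10.8 TPM in the pair. Hsf1, the main heat shock transcription factor, stood at 43.1, 31.8 and 41.0 TPM with DMSO, 43.2, 47.4 and 45.0 TPM with Re, and 16.01 and 19.8 TPM in the pair.

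The small HSPs and their partner Bag3 differed unequally between tables. Hspb1 (HSP25 of the mouse) stood at 293, 225 and 267 TPM with DMSO and 275, 283 and 281 TPM with Re, but was listed at 0 and 0.18 TPM for DMSO and GBC in the pair. The pseudogene-named row Hsp25-ps1, whose transcript shares 48.8% of the windows of Hspb1, stood at 6.38 to 10.3 TPM in the Re table and was listed at 0 in both libraries of the pair. Cryab (αB-crystallin) stood at 142, 117 and 136 TPM with DMSO, 131, 147 and 161 TPM with Re, and 11.4 and 32.8 TPM in the pair. Hspb8, the partner of Bag3 in chaperone-assisted autophagy, was nearly level across tables, at 71.0, 55.1 and 65.0 TPM with DMSO, 71.2, 73.0 and 70.8 TPM with Re, and 54.7 and 52.9 TPM in the pair. By rank, Hspb8 was higher in the pair (648 and 815) than in the Re table (1340 to 1572). Bag3 itself stood at 37.0, 39.7 and 38.5 TPM with DMSO, 33.1, 36.1 and 44.7 TPM with Re, and 1.75 and 4.46 TPM in the pair.

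**Figure D1:**
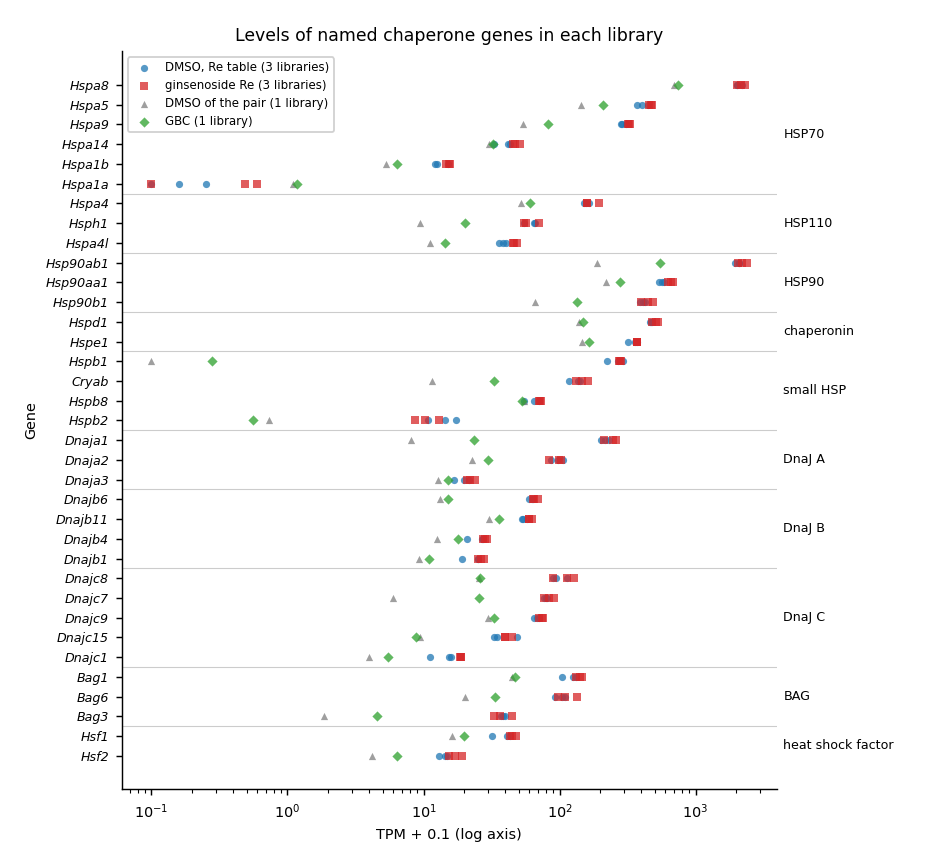
Level of each named chaperone gene in the 8 libraries, as TPM + 0.1 on a log axis, grouped by class; each point is 1 library. Hspb1 sits between 225 and 293 TPM in the 6 libraries of the Re table and at 0 and 0.18 TPM in the pair, while Hspb8 is between 52.9 and 73.0 TPM in all 8.

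The chaperones of the endoplasmic reticulum and of mitochondria were likewise lower in the pair than in the Re table. So were genes at large: over 6627 genes, the DMSO mean of the Re table was a median of 2.26 times the pair's DMSO library (quartiles 1.53 and 3.37). That ratio was 2.39 for Hspe1, 2.81 for Hspa5, 3.38 for Hspd1, 5.44 for Hspa9 and 6.22 for Hsp90b1. Hspa5 (BiP), the HSP70 of the endoplasmic reticulum, stood at 444, 371 and 403 TPM with DMSO, 480, 468 and 453 TPM with Re, and 144 and 207 TPM in the pair. Hsp90b1 (GRP94), the HSP90 of the same compartment, stood at 391, 410 and 422 TPM with DMSO, 396, 444 and 487 TPM with Re, and 65.5 and 134 TPM in the pair. Hspa9 (mortalin), the HSP70 of mitochondria, stood at 307, 282 and 290 TPM with DMSO, 318, 325 and 327 TPM with Re, and 53.8 and 82.4 TPM in the pair. The chaperonin gene Hspd1 stood at 466 to 475 TPM with DMSO, 480 to 528 TPM with Re and 139 and 148 TPM in the pair. Its partner Hspe1 stood at 321 to 369, 369 to 372, and 146 and 164 TPM, so that Hspd1 was the higher of them in the 6 libraries of the Re table and Hspe1 in the pair.

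Summed over all genes, chaperone mRNA was 9165, 8689 and 9241 TPM with DMSO (9032 ± 299, SD, n = 3) and 9288, 9830 and 10296 TPM with Re (9805 ± 504, SD, n = 3), that is 1.28 to 1.35% and 1.32 to 1.39% of the listed TPM. In the pair it was 2295 TPM with DMSO and 3135 TPM with GBC, or 0.569% and 0.653% of the listed TPM. HSP70 and HSP90 genes each made up about the same part of the sum in the Re table, 31.0 to 32.2% and 33.2 to 34.1% over the 6 libraries. In the pair HSP70 made up 40.9% of it with DMSO and 34.7% with GBC, and HSP90 made up 20.6% and 30.5%. The GBC library was thus nearer to the Re table in the HSP90 share than its DMSO control was.

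**Figure D2:**
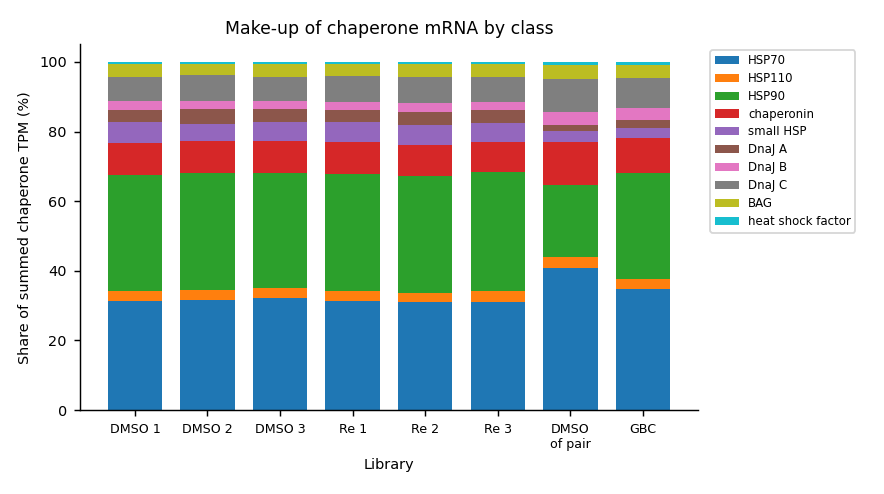
Share of the summed chaperone TPM that each class makes up, in percent, 1 bar for each of the 8 libraries. In the Re table HSP90 makes up 33.2 to 34.1% of every bar, against 20.6% in the DMSO library of the pair and 30.5% in the GBC library.

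The first comparison asked how ginsenoside Re changes expression in C2C12 cells. No chaperone gene passed the test: 0 of the 67 genes that averaged 1 TPM or more, against 0 of all 11967 genes tested (0.0%), had an adjusted p under 0.05 in limma (trend, Benjamini-Hochberg over all genes tested), and their adjusted p ran from 0.687 to 0.982. Differences of log2(TPM + 1), which understate the change of low genes, ran from -0.38 for Hspb2 to 0.41 for Dnajc1, with a median of 0.14 against 0.11 over all genes. They were above 0 for 61 of the 67 (91%), against 77.5% of all genes tested. In 18 of the 67 (26.9%) all 3 Re libraries lay above all 3 DMSO libraries, against 13.7% of all genes tested, and in 0 of the 67 below them, against 1.27%.

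These counts moved with the scaling of the libraries. When each library was divided by the median ratio of its genes to their geometric mean over libraries, the median over all genes went from 0.11 to 0.00, and that of the chaperone genes to 0.03. Then 46 of 67 differences were above 0 (68.7%), against 49.7% of all genes, and 2 of 67 genes (2.99%), Hspa4l and Dnajc1, had all Re libraries above all DMSO libraries, against 5.2% of all genes (4.96% the other way). With the listed TPM of every library set to an equal sum, 55 of 68 differences were above 0 (80.9%, against 63.3%) and 9 of 68 genes had no overlap (13.2%, against 8.59% of all genes higher and 2.76% lower). The DMSO library labelled replicate 2 had the lowest sum of listed TPM and was the lowest of its group in 42 of the 67 chaperone genes (62.7%) and in 60.2% of all genes; without it 59 of the 67 differences were above 0, and the median over all genes was 0.05. The Re library labelled replicate 3 had the highest sum and was the highest of its group in 38 of the 67 and in 50.8% of all genes.

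By unadjusted p, 4 of the 67 chaperone genes were under 0.05, all higher (13 without DMSO replicate 1, where 13.8% of all genes tested were under 0.05), where 5.65% of all genes tested were higher and 0.577% lower. They were Hspa4l, Dnajc1 and Hsp90aa1, which the naming rule covers, and Dnajc11, named here after its values were seen. Hspa4l, an HSP110 nucleotide exchange factor, stood at 40.3, 35.7 and 38.1 TPM with DMSO (38.0 ± 2.29, SD, n = 3) and 46.0, 45.7 and 48.9 TPM with Re (46.8 ± 1.74, SD, n = 3), without overlap. Its difference was 0.29 (95% confidence interval 0.09 to 0.50, limma adjusted p 0.687), and 0.18 after median-of-ratios scaling. Dnajc1, a DnaJ protein of the endoplasmic reticulum membrane, stood at 15.7, 11.02 and 15.3 TPM with DMSO and 18.4, 18.8 and 18.9 TPM with Re. Its difference was 0.41 (0.08 to 0.73), or 0.30 after that scaling, and the lowest value was that of DMSO replicate 2. Dnajc11, a mitochondrial DnaJ protein linked to cristae, stood at 33.5, 30.6 and 34.5 TPM with DMSO and 43.2, 35.0 and 45.6 TPM with Re, a difference of 0.31 (0.04 to 0.59) with the Re replicate 2 near the DMSO range. The Hsp90aa1 levels given above differed by 0.21 (0.03 to 0.40), and by 0.10 after scaling.

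Class medians of the Re difference lay between 0.09 and 0.25. All 9 HSP70 genes tested were higher, with a median of 0.14 and 3 of 9 without overlap, where 77.5% and 13.7% of all genes were; after median-of-ratios scaling 6 of 9 were higher, with a median of 0.03 and 0 without overlap. The 3 were Hspa5 (0.20, interval -0.01 to 0.42), Hspa9 (0.14, -0.03 to 0.32) and Hspa14, a ribosome-associated HSP70, at 43.5, 33.0 and 42.0 TPM with DMSO and 47.1, 51.4 and 45.2 TPM with Re. Hspa8 differed by 0.06 (-0.17 to 0.28) and Hspa1b by 0.19 (-0.07 to 0.45). The other cytosolic HSP90 gene, Hsp90ab1, differed by 0.12 (-0.10 to 0.34) and Hsp90b1 by 0.11 (-0.11 to 0.34). Both chaperonin genes had Re libraries above DMSO libraries, by 0.10 for Hspd1 and 0.09 for Hspe1, although for Hspe1 the lowest Re library (368.62 TPM) and the highest DMSO library (368.54 TPM) all but met. Both were below 0 after median-of-ratios scaling, at -0.02 and -0.03. Of the 3 HSP110 genes, Hspa4 differed by 0.12 (-0.12 to 0.36) and Hsph1, at 54.8, 66.3 and 65.0 TPM with DMSO and 56.5, 54.6 and 70.4 TPM with Re, by -0.04 (-0.33 to 0.25).

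Among the DnaJ genes, 3 of 4 of class A, 8 of 9 of class B and 22 of 23 of class C had differences above 0, with medians of 0.09, 0.14 and 0.15. Of all genes tested, 77.5% were above 0. Overlap was absent in 0, 3 and 6 of them, where 13.7% of all genes had all Re above all DMSO libraries. After median-of-ratios scaling it was absent in 0, 0 and 1, against 5.2% of all genes. Dnaja3, the mitochondrial class A DnaJ, stood at 21.4, 16.6 and 19.7 TPM with DMSO and 21.0, 22.04 and 23.9 TPM with Re, overlapping. Dnajb11, which serves BiP, stood at 57.7, 54.2 and 52.7 TPM with DMSO and 59.4, 63.1 and 59.5 TPM with Re, a difference of 0.14 (-0.05 to 0.33). Dnajb6, a suppressor of protein aggregation that is mutated in a limb-girdle muscular dystrophy, stood at 63.9, 59.7 and 62.5 TPM with DMSO and 63.7, 69.3 and 65.1 TPM with Re, a difference of 0.09 (-0.10 to 0.28).

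Both heat shock factors had all Re libraries above all DMSO libraries, where 13.7% of all genes tested did. After median-of-ratios scaling neither did, and of the 67 chaperone genes only Hspa4l and Dnajc1 still did. Hsf2, at 14.9, 14.4 and 12.95 TPM with DMSO and 15.3, 16.8 and 19.2 TPM with Re, differed by 0.26 (-0.01 to 0.53), and Hsf1 by 0.23 (-0.06 to 0.52). Hsf1 was 43.2 TPM in the lowest Re library and 43.1 TPM in the highest DMSO library, so that its groups all but met. Among the inducible genes, a set not fixed beforehand, the groups did not overlap for Dnajb1, Hsp90aa1, Hspd1 and Hspe1. Dnajb1 differed by 0.20 (-0.08 to 0.48). The groups overlapped for Hspa1b, Hsph1, Hspb1, Cryab, Bag3, Dnaja1 and Dnajb4. Hspb1 differed by 0.10 (-0.15 to 0.35), Cryab by 0.16 (-0.10 to 0.41) and Bag3 by -0.03 (-0.30 to 0.25).

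Of the 6 small HSP genes tested, Hspb11 among them, and the 6 BAG genes, 5 of each had differences above 0, where 77.5% of all genes did. None had all Re above all DMSO libraries, where 13.7% of all genes did. Hspb2, a small HSP of muscle whose gene adjoins Cryab, was the lowest of all: 14.2, 10.7 and 17.4 TPM with DMSO and 10.2, 12.9 and 8.59 TPM with Re, overlapping, a difference of -0.38 (-0.83 to 0.07, limma adjusted p 0.687). Its transcript shares 24.4% of its windows with other transcripts, so its level is uncertain. Bag1, a nucleotide exchange factor linked to the proteasome, stood at 133, 105 and 126 TPM with DMSO and 131, 145 and 141 TPM with Re, a difference of 0.20 (-0.04 to 0.45). Hspb8 differed by 0.17 (-0.07 to 0.42).

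**Figure D3:**
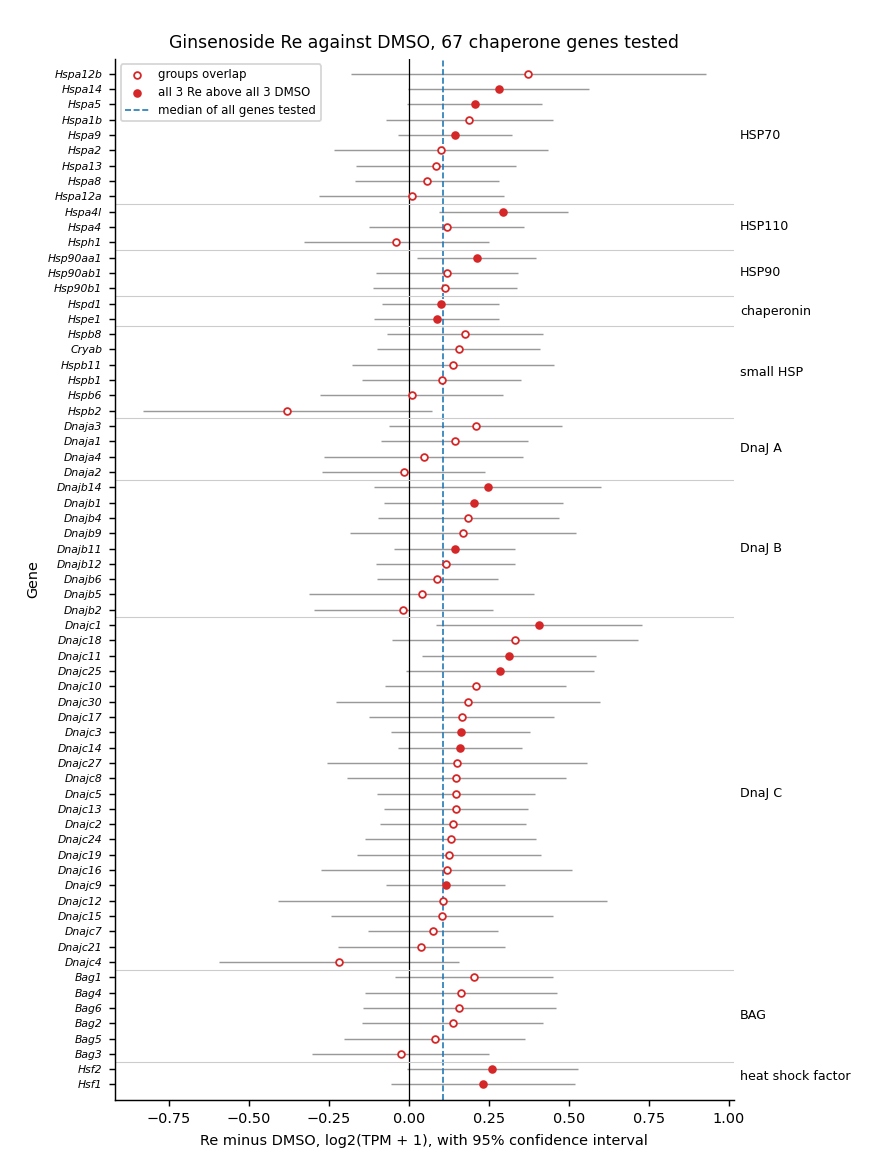
Re minus DMSO on the log2(TPM + 1) scale for the 67 chaperone genes tested, by class; points are fitted differences and bars 95% confidence intervals from limma. Differences run from -0.38 (Hspb2) to 0.41 (Dnajc1), and the intervals of Hspa4l, Dnajc1, Dnajc11 and Hsp90aa1 lie above 0.

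Replicates lay closer together for chaperone genes than for genes at large: the median SD on the log2 scale was 0.14 over the 3 DMSO and 0.10 over the 3 Re libraries, against 0.17 and 0.13 over all genes tested. This is a description, since the genes differ in level.

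The second comparison asked how GBC changes expression. With 1 library a group it had no replicate check and allows no test, so the size of each difference is given as a description of these 2 libraries. Among the chaperone genes, 6 of the HSP90, DnaJ, HSP110 and small HSP classes were at least 2-fold higher with GBC on the log2(TPM + 1) scale (a difference of at least 1). They were 6 of the 46 genes that averaged 5 TPM or more in the pair (13%), against 4.97% of all 6639 genes past the same filter; 0 of 46 were as much lower, against 0.241%. Differences were above 0 for 44 of 46 (95.7%), against 88.9% of all genes, and their median of 0.29 was near the 0.31 of all genes. After median-of-ratios scaling, which took the median of all genes from 0.31 to 0.00, 4 of 46 were past 1 (8.7%, against 1.71%), 21 were above 0 and 25 below, and the chaperone median was -0.01. With equal sums of listed TPM, 4 of 57 were past 1 (7.02%, against 2.99%).

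Dnajc7 (TPR2), a DnaJ protein that binds both HSP70 and HSP90, went from 5.85 to 25.6 TPM, a difference of 1.96, or 1.66 after median-of-ratios scaling. Hsp90ab1 went from 190 to 546 TPM (1.52, and 1.19 scaled), while Hsp90aa1 went from 218 to 277 TPM (0.34, and 0.02 scaled). Hsp90b1 went from 65.5 to 134 TPM (1.02, and 0.69 scaled). The sum of the HSP90 class was thus 2.02-fold higher, 956 against 473 TPM, the highest ratio among the 10 classes. Dnaja1, the main cytosolic class A DnaJ partner of HSC70, went from 8.0 to 23.6 TPM (1.45, and 1.14 scaled), and Cryab from 11.4 to 32.8 TPM (1.45, and 1.14 scaled). Hsph1 (HSP105), an HSP110 protein, went from 9.26 to 20.03 TPM (1.04, and 0.73 scaled). The 4 genes still past 1 after scaling were therefore Dnajc7, Hsp90ab1, Dnaja1 and Cryab.

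The constitutive HSP70 and the chaperonins differed little in the pair. Hspa8 differed by 0.10, Hspd1 by 0.08 and Hspe1 by 0.17, each below the median of all genes and below 0 after scaling (-0.23, -0.24 and -0.16). The HSP70 sum went from 938 to 1086 TPM, 1.16-fold, and that of the chaperonins 1.09-fold. The endoplasmic reticulum and mitochondrial HSP70 genes were above that median: Hspa5 differed by 0.52 and Hspa9 by 0.61, or 0.19 and 0.28 after scaling. The inducible genes, the same set as for Re, were spread widely: Hspa1b (0.22), Dnajb1 (0.22), Hsp90aa1, Dnajb4 (0.49), Hspd1 and Hspe1 were under 1. Hsph1, Dnaja1 and Cryab were past it, and Bag3 and Hspb1 were under the 5 TPM filter. Hsf1 differed by 0.29 and Hsf2 by 0.53.

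The lowest differences of the pair were those of Dnajc15, an inner mitochondrial membrane DnaJ, from 9.29 to 8.67 TPM (-0.09), and Hspb8, from 54.7 to 52.9 TPM (-0.05). These were the only 2 of the 46 below 0 in the deposited TPM. The BAG genes ran from 0.07 for Bag1, at 44.4 and 46.7 TPM, to 0.71 for Bag6, a guide of tail-anchored and misplaced proteins, at 19.9 and 33.2 TPM. Bag3 differed by 0.99, from 1.75 to 4.46 TPM, but its mean was under the 5 TPM asked for. Hspb1, at 0 and 0.18 TPM, allows no fold change.

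The Re table and the pair set the class A and C genes in different order. Dnaja1, at 202, 231 and 216 TPM with DMSO and 214, 246 and 258 TPM with Re, was the highest class A gene of the Re table. In the pair it was below Dnaja2, another cytosolic class A DnaJ, at 22.8 TPM with DMSO and 29.9 TPM with GBC. Dnajc7 stood at 77.1, 81.4 and 78.9 TPM with DMSO and 77.2, 90.3 and 83.2 TPM with Re, next to Dnajc8, a splicing-associated DnaJ protein, at 89.0, 113 and 93.5 TPM and 89.4, 128 and 112 TPM. In the pair Dnajc8 was at 25.6 and 25.9 TPM, as high as Dnajc7 with GBC but well above it with DMSO. Dnajc9, a histone chaperone, was the highest class C gene of the pair at 29.7 and 33.1 TPM.

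**Figure D4:**
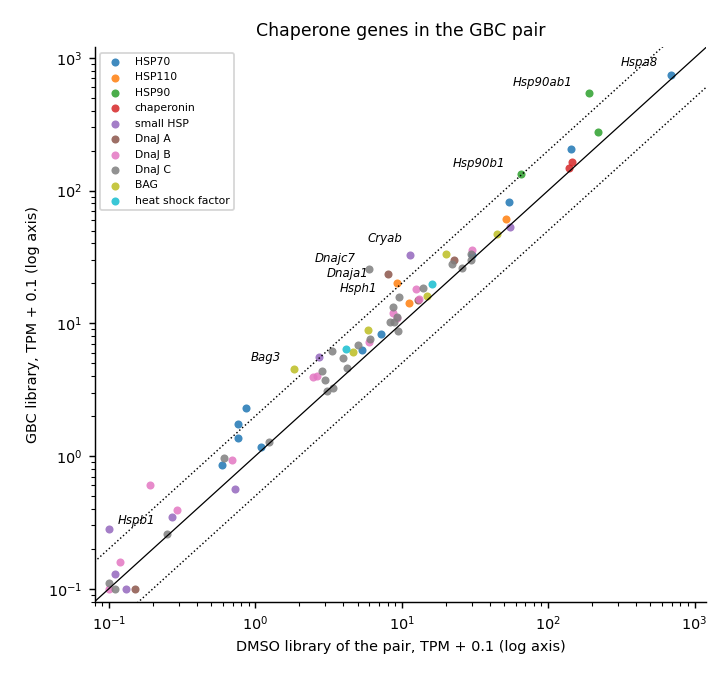
Level of each chaperone gene in the GBC library against the DMSO library of the pair, as TPM + 0.1 on log axes; each point is 1 gene and the solid line marks equal levels and the dotted lines 2-fold differences either way. Dnajc7, Hsp90ab1, Cryab, Dnaja1, Hsph1 and Hsp90b1 lie furthest above the line of equal levels among genes averaging 5 TPM or more, and Hspa8 lies near it.

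Of the 46 genes averaging 5 TPM or more in the pair, the 6 past a difference of 1 with GBC were also the 6 whose DMSO level in the pair was furthest below that in the Re table. The mean of the 3 DMSO libraries of the Re table was 27.0 times the DMSO library of the pair for Dnaja1, 13.5 times for Dnajc7, 11.5 for Cryab, 10.7 for Hsp90ab1, 6.70 for Hsph1 and 6.22 for Hsp90b1. For the other 40 of the 46 it was 1.16 to 5.44 times, with a median of 2.66, against a median of 2.26 over 6627 genes. Genes under that filter reached ratios in the same range or above, such as 105 for Dnaja4 (0.05 TPM in the pair's DMSO library), 22.4 for Hspb2 and 21.9 for Bag3. Genes at large showed the same pattern: 139 of 443 genes at least 6 times lower in that library than in the Re table were past 1 with GBC (31.4%), against 179 of 6184 others (2.89%). Both quantities share the DMSO library of the pair, so a low value there enters both, and the bound of 6 was chosen after the values were seen. Its part in the GBC differences was not tested, and there is no second DMSO library in the pair to test it with.

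**Figure D5:**
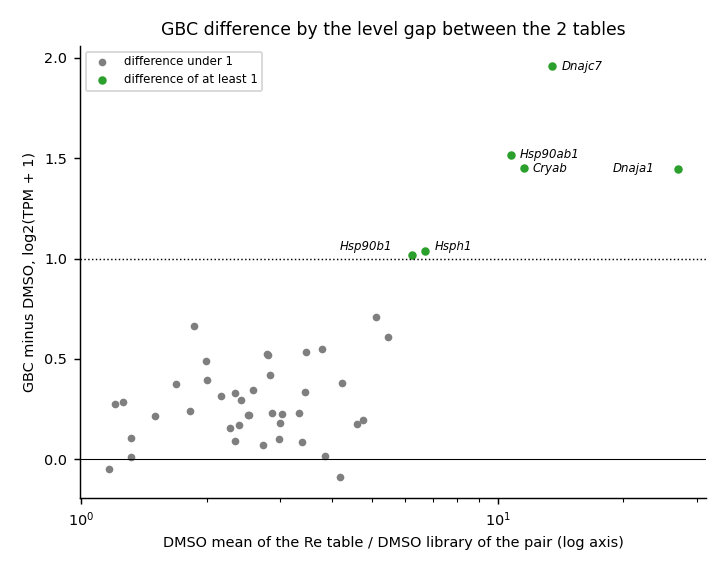
GBC minus DMSO on the log2(TPM + 1) scale against the ratio of the mean DMSO level in the Re table to the DMSO level in the pair (log axis), 1 point for each of the 46 chaperone genes that averaged 5 TPM or more in the pair. The 6 chaperone genes past 1 have ratios from 6.22 to 27.0, and the other 40 plotted have ratios from 1.16 to 5.44; both axes use the same DMSO library.

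The 6 genes were not those that stood out with Re. Their Re differences were 0.07 for Dnajc7, 0.12 for Hsp90ab1, 0.16 for Cryab, 0.14 for Dnaja1, -0.04 for Hsph1 and 0.11 for Hsp90b1, each with an interval that includes 0. In turn Hspa4l, at 11.1 and 14.2 TPM in the pair, differed by 0.34 with GBC, and Dnajc1, at 3.89 and 5.40 TPM, was under the filter. Across the 46 genes measured in both comparisons, which share no library, Pearson's r between the differences was -0.08 and Spearman's rho 0.05; genes are not replicates and no test is attached.

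Of the partner chaperones outside the name rule, 0 of 8 TRiC subunits, 0 of 6 prefoldin subunits, 0 of 13 HSP90 and HSP70 co-chaperones, 0 of 11 endoplasmic reticulum folding genes and 0 of 8 mitochondrial quality control genes had an adjusted p under 0.05 with Re in limma. TRiC, the cytosolic chaperonin that folds actin and tubulin, had 8 of 8 subunits above 0 (median 0.17, and 0.05 after median-of-ratios scaling) and 4 without overlap. Of all genes, 77.5% were above 0 and 13.7% had all Re above all DMSO libraries. After that scaling these shares were 49.7% and 5.2%, and the counts of the lists were not taken. The co-chaperones had 10 of 13 above 0 (median 0.09, and -0.02 after scaling) and 4 without overlap. Prefoldin, which hands nascent actin and tubulin to TRiC, had 5 of 6 above 0 (median 0.14, and 0.03 scaled) and 0 without overlap. The endoplasmic reticulum genes had 10 of 11 above 0 (0.10, and -0.02) and 0 without overlap, and the mitochondrial genes 8 of 8 (0.18, and 0.07) and 4 without overlap. With GBC, 1 of the 12 co-chaperones averaging 5 TPM or more was past 1, and no gene in the other 4 lists. Of all genes past that filter 4.97% were as much higher, and 1.71% after median-of-ratios scaling, where the co-chaperone count was still 1. The gene past 1 was Fkbp4 (FKBP52), an immunophilin that binds HSP90 in steroid receptor complexes, at 17.5 and 47.5 TPM in the pair, a difference of 1.39. In the Re table it stood at 144, 160 and 151 TPM with DMSO and 153, 163 and 189 TPM with Re. Its DMSO level in the pair was thus far below that in the Re table, as for the 6 chaperone genes past 1. A low DMSO level in the pair did not always go with a difference past 1. Cdc37 of the same list, named here after its values were seen, stood at 14.3 TPM in the pair's DMSO library. The DMSO libraries of the Re table held 99.3, 111 and 114 TPM of it, and it differed by 0.50 with GBC. Ppid (cyclophilin 40) and Ptges3 (p23), which also bind HSP90, differed by 0.67 and 0.58 with GBC. The co-chaperone median in the pair was 0.48 against 0.31 for all genes, and those of TRiC, prefoldin, the endoplasmic reticulum and the mitochondrial list were 0.25, 0.06, 0.32 and 0.15.

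How reads shared by near-identical genes were split can change single levels. In the GENCODE M21 transcripts, 38 of the 79 genes had no 50-base window in another gene's transcript, 21 had at least 10% of their windows there and 7 at least 50%. Of the named genes, Hspa8 (68.8%), Hspa1a, Hspa1b, Hsp90aa1 and Hspb1 (50.1% each) were the most affected, with Hspe1 (44.8%), Hspd1 (42.1%) and Dnaja1 (27.1%) next. Of the 6 genes past 1 with GBC, Cryab shared 14.4%, Dnajc7 14.1%, Hsp90b1 13.6%, Hsp90ab1 4.13% and Hsph1 0%. The sources used here do not state whether reads were counted by strand.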

How the data were processed

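RNA libraries were made from total RNA with a TruSeq kit, per the labels' protocols. The submitters' processing notes name STAR, RSEM and the builds GRCm39 and GRCh38, with no versions or roles. The authors deposited 2 tables of log2(TPM + 1), and these log2 values were turned back to TPM, to 0.01 TPM. Counts were not used here, so depth is unknown. Genes were matched by symbol in each table. The members and lists were chosen with earlier results of these data known.

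Re was compared with DMSO (3 and 3 libraries) with limma 3.58.1 (trend, R 4.3.3) on log2(TPM + 1) over all genes averaging 1 TPM or more, with Benjamini-Hochberg adjustment; an exact permutation test of 3 against 3 cannot go below p = 0.1. The fit was also run on simulated data with planted changes. The outcome of that run is not reported here, so it does not tell how small a change could have been called. GBC was compared with DMSO by size only, among genes averaging 5 TPM or more, by a log2 difference of 1 or more. Confidence intervals are 95%. Alternatives were pseudocounts of 0.5 and 0.1, other filters, scalings and variance models, a replicate block, and each library left out. In median-of-ratios scaling the reference genes were those above 0 in all libraries and past the mean filter, chosen after the data were seen, as was the check of shared 50-base windows. Named genes were 21 fixed genes and, in each class, the smallest Re p, the extreme GBC differences and the most abundant in each table; in partner lists, up to 3 with the largest GBC difference. Promoter windows are RefSeq's (GRCm38.p6) and transcripts GENCODE M21, used only for sequence; Python 3.11.15, numpy 2.4.6, pandas 2.3.3 and matplotlib 3.10.9 were used.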

Additional observations from a re-analysis of the deposited data

How the results depend on the processing

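For Re, 0 chaperone genes passed the adjusted p in limma in every setting run; at an unadjusted p under 0.05 there were 4 (6.23% of all genes), and 3 to 13 across settings, the 13 without DMSO replicate 1, where 13.8% of all genes were under it. Over all genes the count past adjusted p was 0, and 0 to 7 when each library was left out in turn. The chaperone median of 0.14 was 0.028 with median-of-ratios scaling and 0.075 with equal sums. Of 34 named genes, 8 turned below 0 with median-of-ratios scaling: Dnajb6 -0.025, Dnajc15 -0.01, Dnajc7 -0.039, Hsp90b1 -0.002, Hspa8 -0.058, Hspb1 -0.013, Hspd1 -0.016 and Hspe1 -0.029. Hspa8 was -0.01 with equal sums. With each library left out in turn, 5 named genes changed sign: Bag3 ran from -0.147 to 0.065, Dnaja2 from -0.088 to 0.068, Dnajc15 from -0.001 to 0.274, Hspb1 from -0.003 to 0.188 and Hsph1 from -0.152 to 0.029. Chaperone genes with all Re above all DMSO libraries were 18 (13.7% of all genes), 2 with median-of-ratios scaling, 9 with equal sums, and 20 to 34 with a library left out, where fewer values are compared and 16.9% to 34.0% of all genes had no overlap. Same-numbered libraries share only a number in their titles (correlations of deviations 0.163, 0.077 and 0.017), and the column headers number the Re libraries differently from the DMSO libraries. With the replicate block 0 genes and 0 chaperone genes passed the adjusted p in limma, and 810 genes against 745 had an unadjusted p under 0.05. With equal groups the block cannot change a difference, only its error.

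For GBC, 6 chaperone genes were past 1, or 4 with either scaling. The median of 0.289 over the 46 genes past the filter was 0.303 and 0.315 at pseudocounts of 0.5 and 0.1, 0.316 and 0.326 at means of at least 1 and 10 TPM, -0.012 with median-of-ratios scaling and 0.084 with equal sums; the cause was not tested. With 1 library a group, unknown depth and no second DMSO library, the error of the GBC differences could not be measured.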

Other observations

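The pseudogene-named rows of the family were mostly silent: of 17, 4 reached 1 TPM in a library. Hspd1-ps3 stood at 1.98 to 2.86 TPM in the Re table and 0.47 and 0.95 TPM in the pair. Dnajc22, by contrast with most of the family, was higher in the pair, at 4.12 and 4.51 TPM, than in the Re table, at 0.53 to 1.30 TPM. Dnaja4, a class A DnaJ gene of muscle and heart, stood at 4.51 to 6.06 TPM in the Re table and at 0.05 and 0 TPM in the pair. Its transcripts share 42.7% of their 50-base windows with another gene's transcripts, so its level is uncertain.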
